A study of Mus musculus with 4 samples.

Results

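Tetraspanins are a family of small membrane-spanning proteins, and 9 of their genes were followed in LSK cells: Cd9, Cd37, Cd53, Cd81, Cd82, Cd151, Tspan13, Tspan14 and Tspan32. They were chosen by gene symbol among the 47561 genes of each deposited table, and all 9 were found and passed the filter on low values. LSK cells are bone marrow cells that lack lineage markers and carry Sca-1 and c-Kit, a gate that takes in hematopoietic stem cells and multipotent progenitors. RNA-seq was performed on LSK cells sorted from 2 Metrn f/f mice and 2 Metrn cKO mice, all C57BL/6 and 12 weeks of age. All 4 mice carried the floxed Metrn gene, which encodes the secreted protein Meteorin. Metrn f/f mice, also labelled wild type, served as controls. Metrn cKO mice carried LysM in addition, which drives deletion in macrophages, neutrophils and related myeloid cells, so deletion was not aimed at the LSK cells themselves. Each library came from 1 mouse, and libraries are named here by genotype and replicate number. Levels are in FPKM, which counts fragments per length of transcript and per mapped read, so that levels of different genes can be compared within a library.

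Tetraspanins do not usually act as receptors on their own. They gather integrins, immunoglobulin superfamily proteins, proteases and signalling enzymes into membrane microdomains and steer the traffic of these partners to the surface and into vesicles. In blood, Cd37 and Cd53 are found mainly on leukocytes, Cd9 is abundant on megakaryocytes and platelets, and Cd81 and Cd82 have been described in stem cell quiescence, Cd82 through binding to Ackr1 (DARC) on marrow macrophages.

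The 9 genes lie on 6 chromosomes (coordinates from GENCODE M21 on GRCm38, the assembly called mm10). Cd9 spans chromosome 6, positions 125460266 to 125494791, Cd53 chromosome 3, positions 106759921 to 106790149, and Cd82 chromosome 2, positions 93419111 to 93463140. Cd37 lies on chromosome 7 at 45233632 to 45239115 and Cd151 on chromosome 7 at 141467392 to 141471473. Tspan32 (chromosome 7, 143005046 to 143019644) and Cd81 (chromosome 7, 143052739 to 143067934) are neighbours on the same strand, with 33094 bases and 0 annotated genes between them. Tspan13 is on chromosome 12 at 36014557 to 36042500 and Tspan14 on chromosome 14 at 40906445 to 40966807.

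The sequence before the start site is shown for 5 genes. Cd9 and Cd53 were highest in the same 2 libraries, Tspan14 varied least in the deposited values, and Tspan32 and Cd81 are neighbours. Sequences are from RefSeq on GRCm38.p6, read 5′ to 3′ on the gene's strand, ending at or shortly before the annotated start, and stop before any annotated exon of the gene. Capitals mark GGGCGG (the GC box letters) or GAGGAAG (purine-rich letters of the kind bound by ETS factors) on either strand, and the marked runs do not overlap.
Cd9 (chr6:125494801-125494860, minus strand): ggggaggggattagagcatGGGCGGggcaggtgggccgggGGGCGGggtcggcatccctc
Cd53 (chr3:106790150-106790249, minus strand): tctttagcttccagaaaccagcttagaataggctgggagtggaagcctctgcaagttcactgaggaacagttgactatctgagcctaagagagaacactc
Tspan14 (chr14:40966897-40966996, minus strand): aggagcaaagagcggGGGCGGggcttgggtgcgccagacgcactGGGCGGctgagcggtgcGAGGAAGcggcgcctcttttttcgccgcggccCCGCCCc
Tspan32 (chr7:143004946-143005045, plus strand): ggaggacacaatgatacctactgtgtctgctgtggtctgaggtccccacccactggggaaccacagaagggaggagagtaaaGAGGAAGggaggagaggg
Cd81 (chr7:143052650-143052737, plus strand): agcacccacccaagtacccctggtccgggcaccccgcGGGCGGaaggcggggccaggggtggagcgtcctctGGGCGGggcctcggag
Windows of 250 bases before to 50 bases after a RefSeq start were searched for all 9 genes, which have 14 such windows. GGGCGG or its complement was present in 8 of the 14 windows (of Cd9, Cd37, Cd81, Cd82, Cd151, Tspan13 and Tspan14) and in 35.7% of all 32851 windows of that length. GAGGAAG or its complement was present in 6 of the 14 (of Cd37, Cd53, Cd82, Tspan14 and Tspan32) and in 13.6% of all windows. In Cd53 its only match began 8 bases into the transcript, outside the stretch shown. The Cd53 window held 4 CpG dinucleotides and the Tspan32 window 2, against 18 for Cd9, 23 for Cd81, 33 for the Tspan14 window shown and a median of 7 over all windows. A match of letters describes the sequence only.

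The libraries differed in more than genotype. FPKM values summed to between 392717 and 671802 per library, and the number of genes at 1 FPKM or more was 12175 to 12996. Because the read totals are not known, no interval for counting error is given. Transcripts of several mature blood cell types were far more abundant in Metrn f/f 2 and Metrn cKO 1 than in Metrn f/f 1 and Metrn cKO 2. Metrn f/f 2 and Metrn cKO 1 were the highest libraries for 9 of 9 neutrophil markers, 10 of 10 macrophage and monocyte markers, 8 of 8 tested B cell markers and 8 of 8 erythroid markers. Wherever 4 values are listed they stand for Metrn f/f 1, Metrn f/f 2, Metrn cKO 1 and Metrn cKO 2 in turn. The targeted gene Metrn had 29.3, 66.3, 42.3 and 36.7 FPKM. Its groups overlapped, so its level did not separate the genotype labels in these cells, and how far the gene was deleted in LSK cells was not tested. The summed neutrophil markers, led by S100a9 and S100a8, were 2554, 32538, 58429 and 2005 FPKM. Of the 10 genes of the LSK marker list, 9 passed the filter on low values. Slamf1 did not, at 0.772, 1.10, 0.363 and 0.637 FPKM. The 2 highest by mean were Cd34, with 265, 206, 118 and 312 FPKM, and Flt3, with 153, 48.7, 78.3 and 189 FPKM. Of the genes of the sorting gate, Kit (c-Kit) had 108, 24.8, 25.9 and 116 FPKM and was low in Metrn f/f 2 and Metrn cKO 1. Ly6a (Sca-1) had 37.2, 83.2, 48.4 and 38.2 FPKM and was highest in those libraries as deposited.

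Tetraspanin transcripts were abundant in all 4 mice. The 9 genes summed to 477, 750, 654 and 547 FPKM. As a share of all FPKM this was 0.121%, 0.112%, 0.116% and 0.132%, so the share differed less between libraries than the sum did. Cd37 was the highest of the 9 in every library and Cd151 the lowest in every library. The order between them changed from mouse to mouse: Cd9 ranked 8, 3, 2 and 8 among the 9. By mean level over the 4 libraries the order was Cd37, Cd81, Tspan13, Tspan32, Cd9, Cd53, Cd82, Tspan14 and Cd151. Neighbours in this order overlapped in their ranges over mice, except that every Cd151 value lay below every Tspan14 value.

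**Figure D1:**
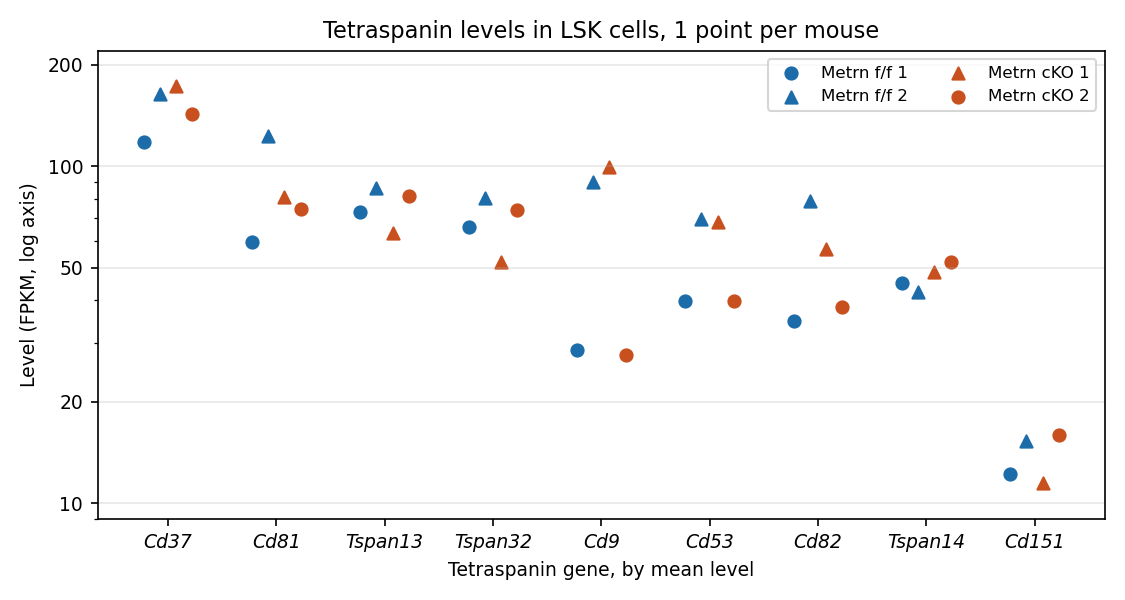
FPKM on a log axis for each of the 9 tetraspanin genes, ordered by mean level, with 1 point per mouse (blue, Metrn f/f; orange, Metrn cKO; triangles, Metrn f/f 2 and Metrn cKO 1; circles, Metrn f/f 1 and Metrn cKO 2). In these deposited values triangles lie above circles for Cd9, Cd37, Cd53, Cd81 and Cd82 (no longer for Cd37 and Cd81 with each library scaled to the same sum), and Cd9 has the widest range, 27.5 to 99.4 FPKM.

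The leukocyte tetraspanins were described first. Cd37, which organises integrin and cytokine receptor signalling in B cells and other leukocytes, had 118, 164, 172 and 143 FPKM. These levels lay at or above percentile 95.7 of the tested genes in each library, and the Metrn f/f and Metrn cKO ranges overlapped. Cd53, a pan-leukocyte tetraspanin, had 39.7, 69.6, 68.5 and 39.9 FPKM. Its deposited levels in Metrn f/f 1 and Metrn cKO 2 were nearly equal, as were those in Metrn f/f 2 and Metrn cKO 1. The high and the low pair thus each held 1 mouse of either genotype. With each library scaled to the same sum, Cd53 had 51.6, 52.9, 62.1 and 49.2, and Metrn f/f 1 and Metrn f/f 2 were nearly equal. Tspan32, a hematopoietic tetraspanin that restrains T cell proliferation and takes part in platelet integrin signalling, had 66.1, 80.7, 51.9 and 74.0 FPKM. As deposited, it was lowest in Metrn cKO 1, the library where Cd37 was highest. With each library scaled to the same sum, Cd37 (177) and Tspan32 (91.4) were each highest in Metrn cKO 2.

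Cd9, Cd81 and Cd82 had the widest ranges between mice in the deposited values. Cd9, a partner of integrins and a surface marker of megakaryocytes and of stem cell subsets, had 28.4, 89.6, 99.4 and 27.5 FPKM. It was about as high in Metrn f/f 2 as in Metrn cKO 1 and about as low in Metrn f/f 1 as in Metrn cKO 2, a span of 3.61-fold over the 4 mice. Of all tested genes, 11.9% had a span at least as wide on the log2(FPKM + 1) scale. Cd82 had 34.6, 78.8, 56.9 and 38.2 FPKM, and Cd81, a tetraspanin found on most cell types, had 59.7, 123, 81.3 and 74.4 FPKM. Both were highest in Metrn f/f 2, and Cd81 in Metrn cKO 1 lay close to its level in Metrn cKO 2. Ackr1, the gene of the macrophage partner of Cd82, had 0.0367, 3.30, 0 and 0.277 FPKM, so it was listed at 0 in Metrn cKO 1. It was chosen after its values were seen.

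The remaining genes had narrower ranges in the deposited values, an order that changed with each library scaled to the same sum. Cd151, which binds laminin-binding integrins, had 12.2, 15.3, 11.5 and 15.9 FPKM, a span of 1.39-fold. Tspan13 had 73.3, 86.3, 63.5 and 81.8 FPKM. Tspan14, which belongs to the tetraspanins that carry the protease ADAM10 to the cell surface, had 45.0, 42.5, 48.6 and 51.9 FPKM. Its span of 1.22-fold was the smallest of the 9 as deposited, and 95.1% of all tested genes had one at least as wide.

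**Figure D2:**
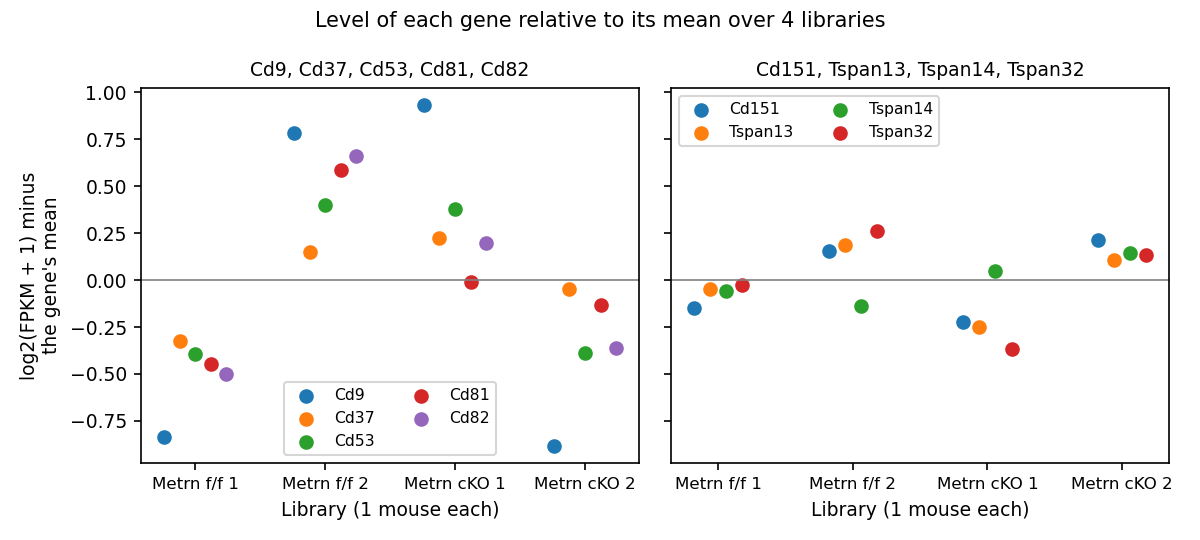
Deposited level of each gene in each library as log2(FPKM + 1) minus that gene's mean over the 4 libraries, with Cd9, Cd37, Cd53, Cd81 and Cd82 on the left and Cd151, Tspan13, Tspan14 and Tspan32 on the right. On the left the points of Metrn f/f 2 and Metrn cKO 1 lie above those of Metrn f/f 1 and Metrn cKO 2 for each gene, while on the right all points lie within 0.37 of the mean.

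Mice of the same genotype were compared next in the deposited values, to see what error a difference between genotypes must exceed. Between the Metrn f/f mice, 8 of the 9 genes were higher in Metrn f/f 2, with a median log2 difference of 0.47, whereas over all 13148 tested genes the median was -0.23. Cd9 (1.62), Cd82 (1.16) and Cd81 (1.03) differed by at least 2-fold, as did 35.6% of all tested genes. The FPKM sum was 671802 in Metrn f/f 2 and 392717 in Metrn f/f 1. With each library scaled to the same sum, Cd9, Cd53, Cd81 and Cd82 were still higher in Metrn f/f 2. Cd37, Cd151, Tspan13, Tspan14 and Tspan32 were then lower there. Between the Metrn cKO mice, 5 genes were higher in Metrn cKO 1 and 4 in Metrn cKO 2 as deposited. Only Cd9 among the 9 differed by at least 2-fold there (log2 difference 1.82), as did 19.1% of all tested genes. In Cd9 both differences were large, and 246 of the tested genes (1.87%) had both at least as large as Cd9. Metrn f/f 1 and Metrn cKO 2 had fewer mature cell transcripts, and from the former to the latter none of the 9 differed by 2-fold, as did 1.36% of all tested genes, and the log2 differences ran from -0.05 for Cd9 to 0.36 for Cd151.

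**Figure D3:**
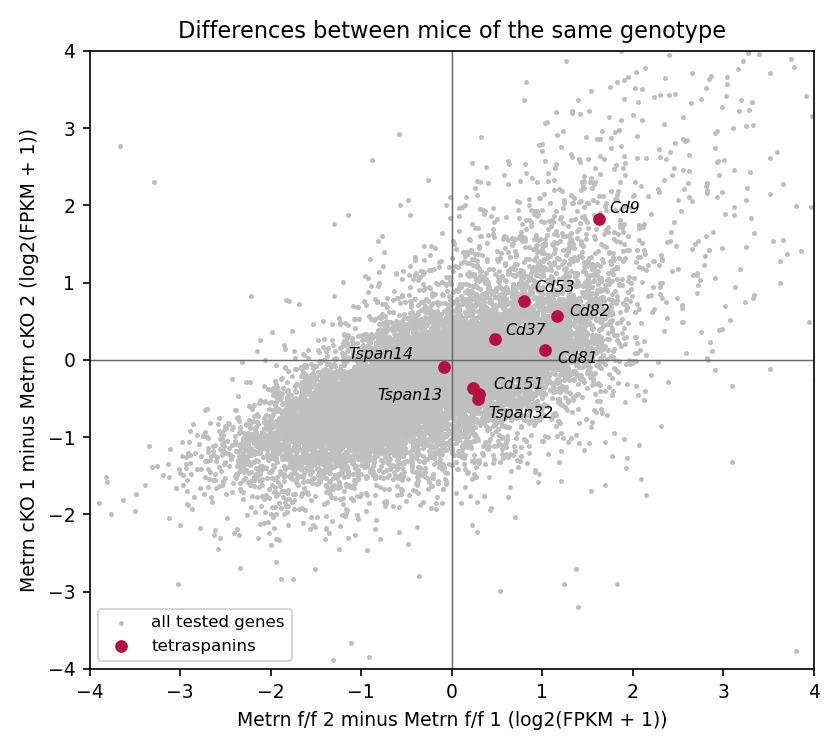
Each point is a gene, with its log2(FPKM + 1) difference between the control mice (Metrn f/f 2 minus Metrn f/f 1) on the horizontal axis and, on the vertical axis, Metrn cKO 1 minus Metrn cKO 2. The axes end at 4 in either direction, which leaves out 122 of the 13148 tested genes (grey). Among the 9 tetraspanins (red), Cd9 lies farthest from 0, at 1.62 and 1.82, and Tspan14 nearest to it.

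The 2 libraries with the highest value were the same for several genes. Metrn f/f 2 and Metrn cKO 1 were highest for Cd9, Cd37, Cd53, Cd81 and Cd82, that is 5 of 9 genes, against 24.0% of all tested genes. Metrn f/f 2 and Metrn cKO 2 were highest for Cd151, Tspan13 and Tspan32, against 12.2% of all tested genes, and the Metrn cKO libraries were highest for Tspan14. As deposited, for 0 of the 9 were Metrn f/f 1 and Metrn cKO 2 highest, the commonest pair over all tested genes (46.0%). With each library scaled to the same sum, that pair was highest for Cd151, Tspan13, Tspan14 and Tspan32. The share of all tested genes with that pair after scaling was not counted. When each library was scaled to the same FPKM sum, Metrn f/f 2 and Metrn cKO 1 stayed highest for Cd9, Cd53 and Cd82 and no longer for Cd37 and Cd81, and 8.75% of all tested genes had this pair. The span of Cd9 was then 2.65-fold, and those of Cd53 (1.26), Cd81 (1.27), Cd82 (1.33) and Cd37 (1.42) were smaller than those of Tspan13 (1.75), Cd151 (1.89) and Tspan32 (1.94). Tspan14 then had 58.5, 32.3, 44.1 and 64.0, a span of 1.99-fold. With scaling by the median ratio, Cd9 had a span of 4.38-fold and 6 of the 9 had this pair on top, against 35.5% of all tested genes. Cd9 thus had the widest span of the 9 under each scaling run.

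For most lists of mature cell markers the deposited sum was highest in Metrn f/f 2 and Metrn cKO 1, as were Cd9, Cd53 and Cd82. Summed macrophage and monocyte markers were 412, 1871, 1141 and 364 FPKM, led by Ly6c2 and the complement gene C1qb. Summed B cell markers, led by Cd79a and Igll1, were 56.8, 389, 702 and 67.7 FPKM, and plasma cell markers, led by Jchain and Xbp1, were 49.7, 221, 454 and 47.8 FPKM. Summed erythroid markers, led by the globin genes Hba-a1 and Hbb-bs, were 3976, 37608, 31488 and 3214 FPKM. Eosinophil, basophil and mast cell markers, led by Prg2 and Ear1, summed to 121, 2127, 1683 and 198 FPKM. Dendritic cell markers, led by Siglech and Itgax, summed to 8.74, 24.8, 43.2 and 6.35 FPKM. T and NK cell markers, led by Nkg7 and Lck, summed to 168, 300.3, 217 and 167 FPKM. As a share of all FPKM the T and NK sum was 0.0429%, 0.0447%, 0.0385% and 0.0405%, lowest in Metrn cKO 1. Lck had 13.4, 15.9, 19.3 and 18.7 FPKM and was highest in the Metrn cKO libraries. Megakaryocyte and platelet markers followed another order, at 37.8, 92.7, 23.4 and 34.5 FPKM, with Pf4 at 10.4, 63.1, 10.6 and 5.65 FPKM, Itga2b at 20.2, 15.5, 7.49 and 20.1 FPKM and Gp6 listed at 0 in every library. Summed LSK markers, led by Cd34 and Flt3, were 716, 484, 349 and 826 FPKM. Of the 9 tested LSK markers, 6 were highest in Metrn f/f 1 and Metrn cKO 2, while Ly6a and Cd48 were highest in Metrn f/f 2 and Metrn cKO 1 in the deposited values. Cd48 had 54.5, 78.7, 56.3 and 50.6 FPKM. Endothelial markers, led by Pecam1 and Tie1, summed to 58.2, 29.9, 28.1 and 64.1 FPKM, and stromal markers, led by Cxcl12 and Col1a2, to at most 3.49 FPKM. Among the B cell markers, Ms4a1 and Cr2 were listed at 0 in Metrn cKO 2, and among the T cell markers Cd3d was listed at 0 in Metrn f/f 1 and Cd3e and Cd3g in Metrn cKO 2. The part of these cells in the tetraspanin levels was not tested. In bulk samples, fewer cells of a type and less RNA per cell cannot be told apart.

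**Figure D4:**
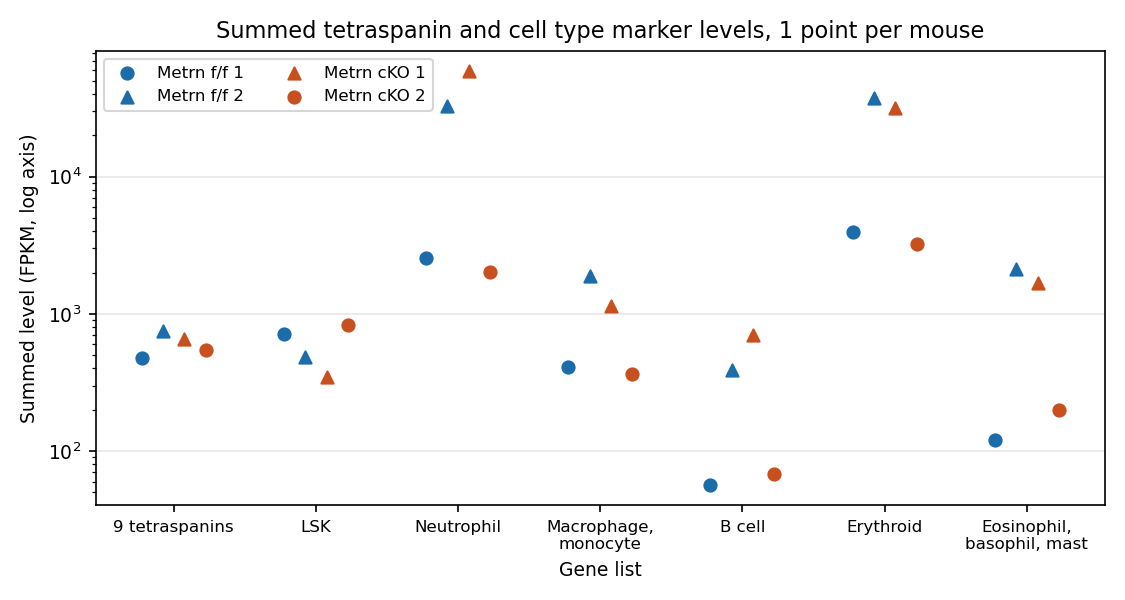
Summed FPKM on a log axis of the 9 tetraspanins and of 6 marker lists, with 1 point per mouse (colours and shapes as in the plot of levels by gene). For neutrophil, macrophage, B cell, erythroid and eosinophil lists the triangles (Metrn f/f 2 and Metrn cKO 1) lie above the circles, for the LSK list, a sum led by Cd34 and Flt3, they lie below, and the tetraspanin sums span 477 to 750 FPKM.

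The main comparison asked whether tetraspanin transcripts of LSK cells differ when Metrn is deleted in myeloid cells. None of the 9 genes passed in either direction (limma, p-values adjusted by Benjamini-Hochberg over the 13148 tested genes, of which 0% passed). The smallest adjusted p among the 9 was 1.00, and 0 of the 9 and 39 of the 13148 tested genes had an unadjusted p under 0.05. On the log2(FPKM + 1) scale of the test and without scaling, the largest difference among the 9 was that of Tspan32, whose level was 73.4 ± 10.4 FPKM in control mice and 63.0 ± 15.7 FPKM in Metrn cKO mice (SD, n = 2 each). Its log2 fold change was -0.23 (SE 0.40), and 49.4% of all tested genes had a smaller change in size. With each library scaled to the same sum, Tspan14 (0.28) and Cd37 (0.27) differed more than Tspan32 (-0.14). Tspan14 had 43.8 ± 1.79 and 50.2 ± 2.30 FPKM and a log2 fold change of 0.19 (SE 0.37). Cd9 had 59.0 ± 43.2 and 63.4 ± 50.8 FPKM, with a log2 fold change of 0.05 (SE 0.77) and a 95% interval from -1.80 to 1.90. The intervals of the other genes were narrower, but each reached past a 2-fold difference in at least 1 direction. The median log2 fold change of the 9 was -0.01, against 0.07 over all tested genes. The libraries stand for separate mice, and with 2 per genotype the smallest p that an exact permutation test of a single gene could reach is above the threshold. The fit had no term for the split of Metrn f/f 2 and Metrn cKO 1 from the other libraries, which stayed in its error. The lack of calls therefore does not show that the genotypes are alike.

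Tspan14 was the single gene of the 9 whose groups did not overlap: both Metrn cKO values lay above both Metrn f/f values. This held for 6.31% of all tested genes (829), the reverse for 5.73% (754), and 12.0% were without overlap in 1 direction or the other. For 0 of the 9 both Metrn cKO values lay below. After scaling to the same sum the Tspan14 groups overlapped and those of Cd37 did not, where 8.87% of all tested genes were without overlap in either direction. After scaling by the median ratio 0 of the 9 were without overlap, against 12.0% of all tested genes. With a single library standing for 1 genotype, 6 of the 9 were without overlap when Metrn f/f 1 was left out (77.9% of all tested genes) and 5 when Metrn f/f 2 was (51.8%). The count was 3 of the 9 when Metrn cKO 1 was left out (53.2%) and 6 when Metrn cKO 2 was (41.7%). The log2 fold change of Tspan14 was 0.15 to 0.24 with each library left out in turn. Its sign could not change, because its deposited groups did not overlap, so this is not a separate result. The log2 fold changes of the other genes changed sign with 1 library. Cd9 ran from -0.86 without Metrn cKO 1 to 0.96 without Metrn cKO 2, and Cd82 from -0.74 without Metrn f/f 1 to 0.42 without Metrn f/f 2. Cd81 ran from -0.66 to 0.38 without the same 2 libraries, and Cd53 from -0.41 without Metrn f/f 1 to 0.39 without Metrn f/f 2. Cd37 was -0.06 without Metrn f/f 1 and 0.41 without Metrn f/f 2. Tspan32 was 0.02 and Tspan13 0.04 without Metrn cKO 1, and Cd151 was 0.21 without Metrn cKO 1 and -0.23 without Metrn cKO 2.

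**Figure D5:**
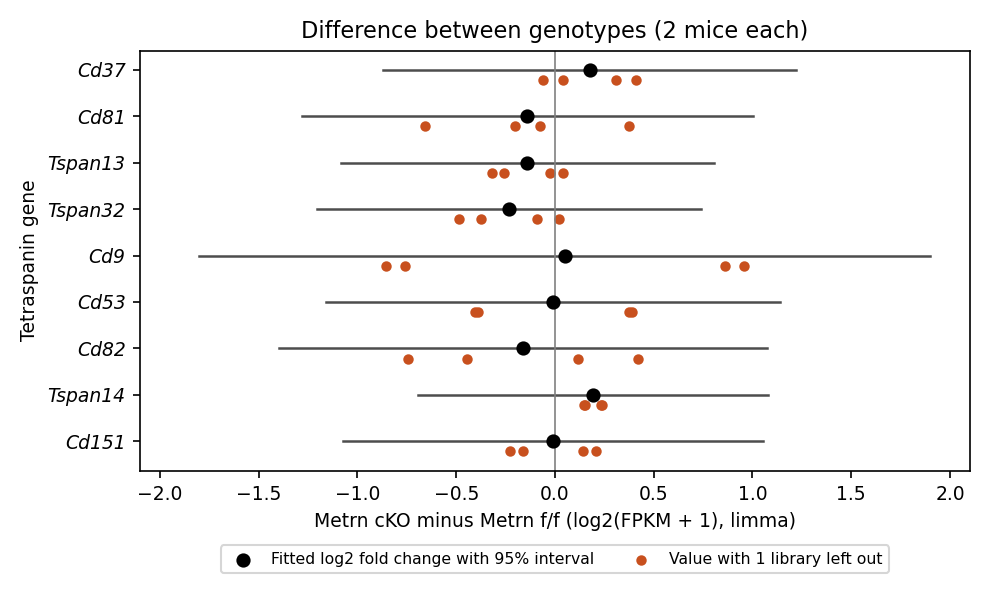
Log2 fold change of Metrn cKO against Metrn f/f for each tetraspanin gene (black points) with its 95% interval from limma (lines), and the value with each library left out in turn (orange points). Every interval crosses 0. All 4 leave-one-out values keep the sign of the fitted value for Tspan14 alone, which follows from its groups being without overlap.

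The other 22 family members gave the setting for these levels, and 11 of them passed the filter on low values. Cd63, a tetraspanin of late endosomes and granules, had 122, 342, 259 and 129 FPKM and thus the same pair of highest libraries as Cd9. Tspan4 had 60.3, 89.1, 28.3 and 62.0 FPKM and Tspan3 had 33.3, 41.4, 20.9 and 37.0 FPKM, both lowest in Metrn cKO 1 as Tspan32 was. Tspan31 had 30.1, 39.3, 29.9 and 26.3 FPKM, and both Metrn cKO values lay below both Metrn f/f values. Tspan2 had 12.8, 6.61, 13.7 and 13.4 FPKM, with both Metrn cKO values above. Tspan5 and Tspan33 share the ADAM10-carrying role of Tspan14, and they had 10.8, 8.18, 11.1 and 10.4 FPKM and 3.83, 25.9, 8.06 and 2.27 FPKM. None of the 11 passed by limma (0 higher, 0 lower, 0 with an unadjusted p under 0.05), and their median log2 fold change was -0.16. All 31 tetraspanin genes together took 0.194%, 0.197%, 0.185% and 0.204% of all FPKM.

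Partners of the tetraspanins were compared from a list by type. Among 11 tested integrin genes, 0 passed in either direction, and the median log2 fold change was 0.32. Itgb2, the beta chain of leukocyte integrins, had 29.5, 66.2, 156 and 27.2 FPKM, and Itgb1, the beta chain shared by the laminin and fibronectin receptors, had 50.4, 27.6, 33.3 and 49.9 FPKM. Itgb2 was highest in Metrn f/f 2 and Metrn cKO 1, as Cd9 was, and Itgb1 was highest in Metrn f/f 1 and Metrn cKO 2. Among 7 tested immunoglobulin superfamily genes, 0 passed and the median was -0.20. Igsf8, a direct partner of Cd9 and Cd81, had 19.5, 18.9, 21.3 and 18.9 FPKM, and Vcam1, an adhesion ligand, had 5.63, 44.8, 16.2 and 6.34 FPKM. The 4 genes of the ADAM10 and Notch group had a median of 0.45, with 0 passing. Adam10, the protease that Tspan14 carries, had 39.1, 17.2, 21.7 and 39.0 FPKM, and its substrate gene Notch1 had 29.7, 3.69, 14.7 and 30.3 FPKM. Both were lowest in Metrn f/f 2 as deposited. Tspan14 was lowest there too in the deposited values (1.22-fold span) and with each library scaled to the same sum (1.99-fold). With scaling by the median ratio it had 41.6, 47.6, 52.2 and 45.9 and was lowest in Metrn f/f 1. The share of all tested genes lowest in Metrn f/f 2 was not counted, and a link of Tspan14 to these partners was not tested. Among 13 tested signalling and trafficking genes, 0 passed and the median was 0.19. The highest were Ifitm2 and Ifitm3, membrane proteins of a family known to bind tetraspanins, with 259, 595, 257 and 268 FPKM and 167, 455, 192 and 205 FPKM. These partner medians were not tested against other genes.

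Pairs of the 9 genes and the genes closest to them were ranked by likeness, the root mean square difference between log2(FPKM + 1) values after each gene's mean was subtracted, over 4 libraries. Tspan13 and Tspan32 were the most alike pair (0.07), followed by Tspan13 and Cd151 (0.08). Cd81 and Cd82 (0.16) and Cd53 and Cd82 (0.17) were the next most alike outside that group. Among 8996 other genes, the closest to Cd82 was Psma2, a proteasome subunit gene (0.0041), and the closest to Tspan13 was Pmpcb, of the mitochondrial processing peptidase (0.0047). The closest to Cd53 was Sri, a calcium-binding protein gene (0.02), to Cd9 Hint3 (0.04), to Cd37 Gskip (0.01) and to Cd81 BC028528 (0.03). The closest to Cd151 was Rnpc3 (0.01) and to Tspan32 Mettl17 (0.03). Within 0.1 of Cd9 lay 4 of these genes (0.044%), within 0.1 of Cd53 76 (0.84%) and within 0.1 of Tspan14 287 (3.19%). Within 0.1 of Tspan13 lay 271 (3.01%) and within 0.1 of Tspan32 157 (1.75%), so many other genes were about as close to them. Cd9 had the fewest such genes of the 9. Likeness was not scaled to a gene's span, so this count depends on the span of Cd9, the widest of the 9, and is not a separate result. The closeness of the other pairs depends on their spans too.

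Some annotated genes share exons with the 9 genes on the opposite strand, and the strand setting of the counting is not given in the sources used here. They include Tead2 at Cd37, with 3.73, 3.45, 1.15 and 4.61 FPKM, and R74862 at Cd81, with 1.40, 1.03, 0.481 and 1.35 FPKM. Their levels were far below those of Cd37 and Cd81. How reads in the shared exons were assigned is not known, so these levels do not bound the effect on Cd37 or Cd81. Tspan32os, which shares exons with Tspan32 on the opposite strand, had no deposited values.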

How the data were processed

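RNA-seq libraries of sorted LSK cells from 2 Metrn f/f and 2 Metrn cKO mice were used. The authors deposited 1 table per library, whose values were taken as FPKM from their range and sums, because no header names a unit. Per the submitters' processing notes, DESeq2 2.11.40.6, featureCounts 1.6.4, HISAT2 2.1, cutadapt 1.16.5, bcl2fastq 2.19 and build mm10 were used, in roles not given there. Read depth per library is unknown.

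The 13148 genes that reached 1 FPKM in 2 or more libraries were fitted with limma 3.58.1 in R 4.3.3 on log2(FPKM + 1), with an intensity trend. Tests were 2-sided, p-values were adjusted over these genes by Benjamini-Hochberg, and the threshold was 0.05. Values were not rescaled. Fold changes on this scale understate those of low genes. The fit was tested on simulated data with small independent noise and large added changes, without the split between libraries seen here. That test does not show what the fit could detect in these data. The members and gene lists were chosen with earlier results of these data known. Named genes are the 9 members, other tetraspanins with a mean of at least 10 FPKM, the 2 highest genes of each partner and marker list, and the gene closest to each member (mean of 4 FPKM or more), except that the gene closest to Tspan14 is not reported here. Kit, Ly6a, Cd48, Slamf1, Ackr1, markers listed at 0 and overlapping genes were named after their values were seen. Alternatives were another pseudocount, no filter, no trend, 2 scalings, blocks and libraries left out.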

Additional observations from a re-analysis of the deposited data

How the results depend on the processing

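None of the 9 tetraspanin genes passed under any alternative run. Over all genes, the replicate block (replicate number as a term) gave 3 genes higher and 1 lower, against 0 and 0 without it. The differences between mice ran opposite for the same numbers (r = -0.71 across 13148 genes, which are not independent), and a crossed block chosen after seeing the data gave 37 higher and 65 lower. The labels do not say that a number marks a pair. With 1 library left out, 0 to 32 genes were called higher and 0 to 4 lower (32 and 2 without Metrn cKO 2, 0 and 4 without Metrn cKO 1), and 3 to 6 of the 9 had groups without overlap, fewer values being compared, as had 41.7% to 77.9% of all tested genes. After scaling by the median ratio 0 of the 9 were without overlap, the cause of which was not tested. Signs of the log2 fold change reversed for Cd53 (0.082) and Cd151 (0.079) with each library scaled to the same sum and for Cd9 (-0.0083) with the median ratio. For Metrn cKO 2 against Metrn f/f 1 alone, they reversed for Cd9 (-0.047), Cd53 (0.0061), Cd81 (0.31), Cd82 (0.14), Cd151 (0.36), Tspan13 (0.16) and Tspan32 (0.16). Leave-one-out ranges were -0.86 to 0.96 for Cd9, -0.061 to 0.41 for Cd37, -0.41 to 0.39 for Cd53, -0.66 to 0.38 for Cd81, -0.74 to 0.42 for Cd82, -0.23 to 0.21 for Cd151, -0.32 to 0.039 for Tspan13 and -0.49 to 0.019 for Tspan32. The pseudocount, the filter and the intensity trend reversed no sign and moved no count of calls. Read depth is unknown, so the counting error of each gene is too.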
